A study of Mus musculus with 6 samples.

Results

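Spinal neurons that send their axons out of the cord signal with acetylcholine, and 7 genes that mark them were followed: Chat, Slc18a3, Slc5a7, Ache, Mnx1, Isl1 and Nos1. Every probe set whose platform symbol is one of these genes was taken, which gave 11 of the 45037 probe sets that are not array controls. The rule uses gene symbols and no measured value, although the genes were chosen with earlier results of these data known. Of the 11 probe sets, 8 had a mean over all arrays above the filter for testing, a scaled intensity of 155.2, and they covered 6 of the 7 genes. The probe set of Slc5a7 and 2 of the 4 probe sets of Nos1 were below it.

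RNA came from lumbar cord segment L1 of male SCID mice, a strain without working T and B lymphocytes, and each of 3 groups had 2 arrays. N-inv mice carried Capan-1, a human pancreatic cancer line, in the left sciatic nerve. SC mice carried the same line under the skin, and PBS mice received vehicle. The mice were 9 weeks old when the experiment began and 15 weeks at collection, which was 6 weeks past the injection. Since 1 cell line was used, both tumour groups model 1 tumour of origin. No label ties the arrays to separate mice, so the p-values reflect spread among these samples and part of that spread may be technical.

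Somatic motor neurons of the ventral horn and preganglionic autonomic neurons of the intermediolateral column are the main cholinergic output cells of the cord. Motor neurons are specified by the homeodomain factors Mnx1 and Isl1, and many sympathetic preganglionic neurons also make nitric oxide through Nos1. The upper lumbar cord holds both kinds of neuron, whereas most motor neurons of the sciatic nerve lie further down the lumbar cord. Isl1 is also used by sensory and some dorsal horn neurons, and Nos1 by dorsal horn interneurons.

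Several array-wide values bear on what follows. The SC arrays correlated with each other at 0.953, less than any other pair, and had Actb 3' to 5' ratios of 3.81 and 4.70, against 3.05 to 3.57 elsewhere, a measure that goes up as RNA degrades. Xist, made by female cells, was 13042 in SC replicate 2 and 138 to 228 in the other arrays, although every mouse is labelled male. Eif2s3y, a gene of the Y chromosome, was 3147 in SC replicate 2 and 1342 to 2647 in the other arrays, so that array was high in both. The cause was not tested, and many results that rest on SC are also given without that array. As a check of the labelled tissue, 10 of 11 measured Hox genes of the lower cord were above the filter. Of 7 measured skeletal muscle genes 6 were below it, and so were 5 of 7 measured genes of sensory ganglion neurons, among them Avil, Scn10a and Trpv1.

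The first group of members makes and stores the transmitter. Chat, choline acetyltransferase, joins choline to an acetyl group, and its 1 probe set was dim. Its scaled intensity was 203 and 192 in N-inv, 182 and 212 in SC, and 173 and 167 in PBS. All 4 arrays from tumour-bearing mice lay above both PBS arrays, and N-inv overlapped SC. Group means were 198 ± 8.21 in N-inv, 197 ± 21.6 in SC and 169.8 ± 4.11 in PBS (SD, n = 2 each). The log2 difference was 0.19 ± 0.16 (SE) for N-inv against PBS, with a 95% interval of -0.19 to 0.57 and a limma adjusted p of 1.0. For SC against PBS it was 0.18 ± 0.16, with an interval of -0.20 to 0.57 and a limma adjusted p of 0.840, and it was 0.08 without SC replicate 2. These comparisons share the PBS arrays, as do all such pairs given here. In bulk tissue, fewer cells of a type and less RNA per cell cannot be told apart.

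Slc18a3, the vesicular acetylcholine transporter, fills synaptic vesicles. It measured 1846 and 1599 in N-inv, 902 and 1522 in SC, and 1693 and 1257 in PBS. Both N-inv arrays exceeded both SC arrays, while PBS overlapped each of the other groups. N-inv exceeded SC by a log2 difference of 0.54 ± 0.28 (SE), with an interval of -0.14 to 1.22 and a limma adjusted p of 0.632. The size of that difference depended on the SC arrays: it was 0.17 without SC replicate 1 and 0.91 without SC replicate 2. Against PBS the difference was 0.23 in N-inv (-0.44 to 0.91). In SC it was -0.31 (-0.99 to 0.37), and it turned to 0.06 without SC replicate 1.

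Chat and Slc18a3 form the cholinergic gene locus, in which the transporter gene lies within the span of Chat. In RefSeq (GRCm38.p6) their starts are 1059 bases apart. The 250 bases before each start are printed because the locus joins 2 of the members, and Slc5a7, on another chromosome, is set beside them. Capitals mark, on either strand, TAAT (reverse complement ATTA), the core bound by many homeodomain factors, and TGACG (reverse complement CGTCA), part of the cAMP response element. The sequences run 5′ to 3′ in the direction of the gene.
Chat (chr14:32465910-32466159, minus strand): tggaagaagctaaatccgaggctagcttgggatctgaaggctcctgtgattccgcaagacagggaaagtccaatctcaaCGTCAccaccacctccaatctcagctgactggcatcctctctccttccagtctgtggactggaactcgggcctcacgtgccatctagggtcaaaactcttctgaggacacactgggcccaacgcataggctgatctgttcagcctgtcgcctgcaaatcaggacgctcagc
Slc18a3 (chr14:32464851-32465100, minus strand): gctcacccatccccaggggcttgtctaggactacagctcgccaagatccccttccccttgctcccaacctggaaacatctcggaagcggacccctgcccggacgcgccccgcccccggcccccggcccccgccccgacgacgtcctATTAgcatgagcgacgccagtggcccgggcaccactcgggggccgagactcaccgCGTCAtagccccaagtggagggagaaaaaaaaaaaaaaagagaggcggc
Slc5a7 (chr17:54299035-54299284, minus strand): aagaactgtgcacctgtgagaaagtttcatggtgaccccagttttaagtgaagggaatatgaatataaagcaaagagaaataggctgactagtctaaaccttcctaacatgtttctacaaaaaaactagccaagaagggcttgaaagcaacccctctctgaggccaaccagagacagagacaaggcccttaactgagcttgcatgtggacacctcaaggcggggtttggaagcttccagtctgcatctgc
The Chat window held 1 match to TGACG, the Slc18a3 window held 1 match to each motif, and the Slc5a7 window held none. Of all 32851 windows of this length in the RefSeq promoter table, 54.9% held TAAT and 17.8% held TGACG. A match is a description of the letters and not a bound site. Over the 6 arrays, Pearson correlations of log2 values were 0.39 between Chat and Slc18a3, -0.38 between Chat and Slc5a7 and 0.26 between Slc18a3 and Slc5a7.

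Slc5a7, the high-affinity choline transporter, brings choline back into cholinergic endings. It measured 136 and 71.7 in N-inv, 101 and 144 in SC, and 244 and 170.0 in PBS. All 4 arrays from tumour-bearing mice lay below both PBS arrays, and only the PBS arrays were above the filter value. Group means were 104 ± 45.7 in N-inv, 123 ± 29.9 in SC and 207 ± 52.6 in PBS (SD, n = 2 each). Because its mean over all arrays was 145, it was not among the probe sets tested.

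In the fit without a filter, over 45037 probe sets, the log2 difference of Slc5a7 was -0.87 ± 0.34 (SE) for N-inv against PBS. Its interval was -1.75 to 0.00, with an unadjusted p of 0.0501 and an adjusted p of 1.0 in limma. For SC against PBS the difference was -0.65 ± 0.34 (-1.52 to 0.23), with a limma adjusted p of 0.828, and -0.86 without SC replicate 2. N-inv and SC differed by -0.22 (-1.10 to 0.65), a value of -0.59 without N-inv replicate 1 that turned to 0.14 without N-inv replicate 2. It was -0.02 without SC replicate 2. Leaving out single arrays moved the N-inv against PBS value between -1.24 without N-inv replicate 1 and -0.51 without N-inv replicate 2. Slc5a7 therefore had the largest difference from PBS among the 7 genes, at a signal too low to be tested with the others.

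Ache, acetylcholinesterase, ends the signal by splitting the transmitter, and it was the brightest probe set among the members. It measured 4898 and 4455 in N-inv, 3835 and 4059 in SC, and 4308 and 4321 in PBS. The groups did not overlap, with N-inv highest and SC lowest. The log2 difference was 0.11 ± 0.15 (SE) for N-inv against PBS, with a limma adjusted p of 1.0. For N-inv against SC the value was 0.24 ± 0.15, with an interval of -0.13 to 0.61 and a limma adjusted p of 0.697. For SC against PBS it was -0.13 ± 0.15, with an interval of -0.50 to 0.24, and -0.17 without SC replicate 2. Ache is also made in skeletal muscle, whose gene Acta1, the 1 muscle gene above the filter, measured 268 and 301 in N-inv, 78.2 and 164 in SC, and 241 and 284 in PBS, and the part of muscle RNA in the Ache values was not tested.

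**Figure D1:**
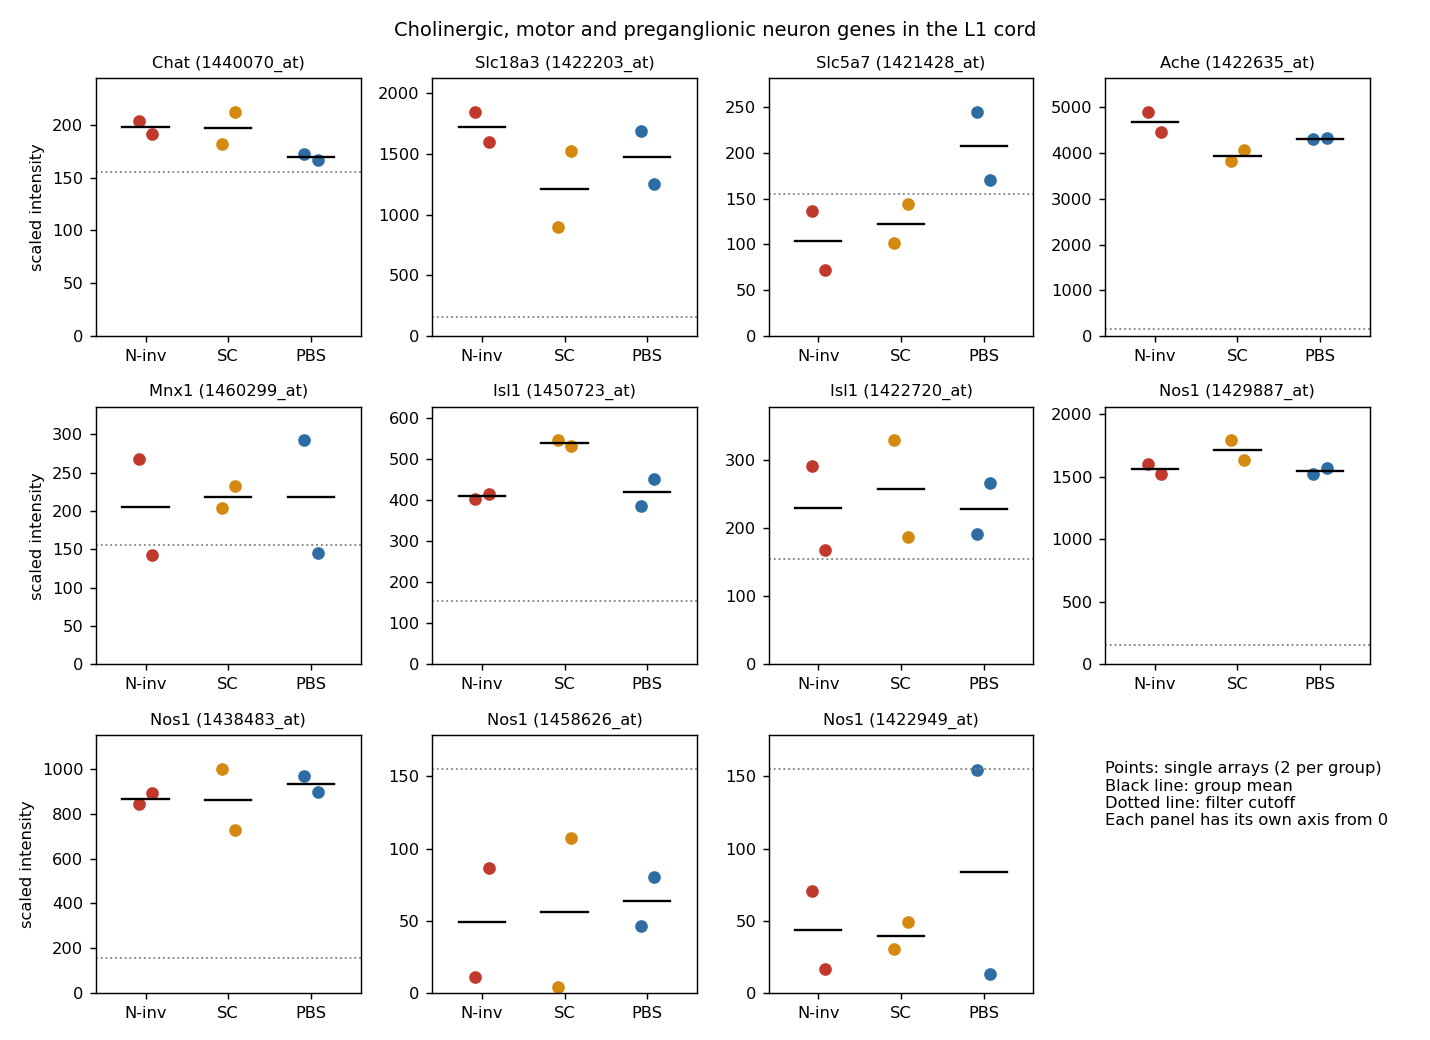
Scaled intensity of the 11 member probe sets in N-inv, SC and PBS arrays; points are single arrays, black lines are group means (n = 2 per group), the dotted line is the filter at 155.2, and each panel has its own linear axis from 0. Both PBS arrays are highest for Slc5a7, and both SC arrays are highest for Isl1 1450723_at.

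The next members are transcription factors of motor neuron identity. Isl1 was read by 2 probe sets, of which 1450723_at was brighter and measured 403 and 415 in N-inv, 545 and 532 in SC, and 386 and 452 in PBS. Both SC arrays lay above the other 4 arrays, and N-inv overlapped PBS. N-inv was below SC by a log2 difference of -0.38 ± 0.16 (SE), with an interval of -0.76 to 0.01, an unadjusted p of 0.0530 and an adjusted p of 0.563 in limma. SC was above PBS by 0.35 ± 0.16, with an interval of -0.04 to 0.73 and a limma adjusted p of 0.672. Without SC replicate 2 these values were -0.39 and 0.36. Between N-inv and PBS the difference was -0.03 (-0.41 to 0.35).

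The second Isl1 probe set, 1422720_at, measured 292 and 168 in N-inv, 329 and 187 in SC, and 192 and 266 in PBS, and every pair of groups overlapped. Its log2 difference for SC against PBS was 0.13 (-0.69 to 0.94), and the correlation between both Isl1 probe sets was 0.31 over the 6 arrays. The higher SC values of Isl1 thus rest on 1 of 2 probe sets. Pou4f1, a factor of sensory and some dorsal horn neurons, was likewise highest in both SC arrays, with 665 and 641 in N-inv, 817 and 891 in SC, and 564 and 552 in PBS. Prrxl1, the other sensory ganglion gene above the filter, had 1755 and 1861 in N-inv, 1383 and 1904 in SC, and 1639 and 1851 in PBS, so the SC arrays enclosed the others. The part of those neurons in the Isl1 values was not tested.

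Mnx1, also called Hb9, marks somatic motor neurons. It measured 268 and 142 in N-inv, 204 and 233 in SC, and 292 and 145 in PBS. The spread between the arrays of N-inv and between those of PBS exceeded any gap between group means, which were 205 ± 88.5 in N-inv, 218 ± 20.4 in SC and 219 ± 104 in PBS (SD, n = 2 each). The log2 difference for N-inv against PBS was -0.07 ± 0.37 (SE), with an interval of -0.95 to 0.81. It turned to 0.33 without N-inv replicate 2 and to 0.38 without PBS replicate 1, so no order of groups can be read for Mnx1.

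Nos1, neuronal nitric oxide synthase, had 4 probe sets. The brightest, 1429887_at, measured 1606 and 1520.0 in N-inv, 1790.3 and 1638 in SC, and 1522 and 1567 in PBS. Both SC arrays were above the other 4, by a log2 difference of 0.15 ± 0.15 (SE) over PBS, with an interval of -0.22 to 0.51 and a limma adjusted p of 0.869. Without SC replicate 2 it was 0.21. N-inv and PBS overlapped and differed by 0.02 (-0.35 to 0.38).

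The probe set 1438483_at of Nos1 measured 843 and 893 in N-inv, 999.9 and 727 in SC, and 969.7 and 897 in PBS. Here the SC arrays enclosed the others and both N-inv arrays lay below both PBS arrays, by a log2 difference of -0.10 (-0.57 to 0.37). The probe sets 1458626_at and 1422949_at were below the filter in every array, with values from 4.31 to 154. The probe sets of Nos1 did not share an order of groups, and the brighter pair correlated at 0.11.

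Counted over the 6 members above the filter in the fit to all 6 arrays, limma called 0 at an adjusted p under 0.05 in each comparison. There, 0 had an unadjusted p under 0.05. Where SC is compared, that unadjusted count depends on SC replicate 2. Over all 27022 probe sets the adjusted test called 0 (0%) in each comparison. An unadjusted p under 0.05 was reached by 4.03% of all probe sets in N-inv against PBS (2.27% higher, 1.76% lower). The shares were 8.90% in N-inv against SC (5.95% higher, 2.95% lower) and 7.88% in SC against PBS (2.72% higher, 5.16% lower). The smallest adjusted p over the member values under all alternatives run was 0.685, 0.226 and 0.322 in the same order.

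By separation of arrays, 2 of 6 members (Chat and Ache) were higher and 0 lower in N-inv than in PBS, where 36.3% of all probe sets tested did not overlap (21.7% higher, 14.6% lower). In N-inv against SC, Slc18a3 and Ache were higher and Isl1 and Nos1 lower, 4 of 6 beside 36.9% of all (23.7% higher, 13.3% lower). In SC against PBS, Chat, Isl1 and Nos1 were higher and Ache lower, 4 of 6 beside 34.4% of all (14.2% higher, 20.2% lower). With 6 genes these shares describe the members and are no test. The median log2 difference of all 7 genes was 0.02 in N-inv against PBS, -0.13 in N-inv against SC and 0.06 in SC against PBS, beside 0.02, 0.05 and -0.02 for all probe sets tested.

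A simulation of N-inv against PBS on all 27022 probe sets was run. In it limma recovered 29 of 67 log2 changes of 1, 63 of 67 of 2 and 66 of 66 of 3. It also called 5 unchanged probe sets. The simulated noise was normal, with spreads that limma had already pulled toward a common value, so recovery in the real arrays may be lower. All changes were also put into 1 simulated set together, which eases the adjusted threshold, whereas the real comparison called 0 probe sets. Recovery of a single changed member was therefore not measured. In the real arrays the injury gene Sprr1a, at a log2 difference of 4.63 in N-inv against PBS, was not called in the fit to all 6 arrays. The intervals of the 6 tested members in that comparison lay within -0.95 and 0.91. The differences themselves ran from -0.07 to 0.23, and changes below 1 were not simulated.

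**Figure D2:**
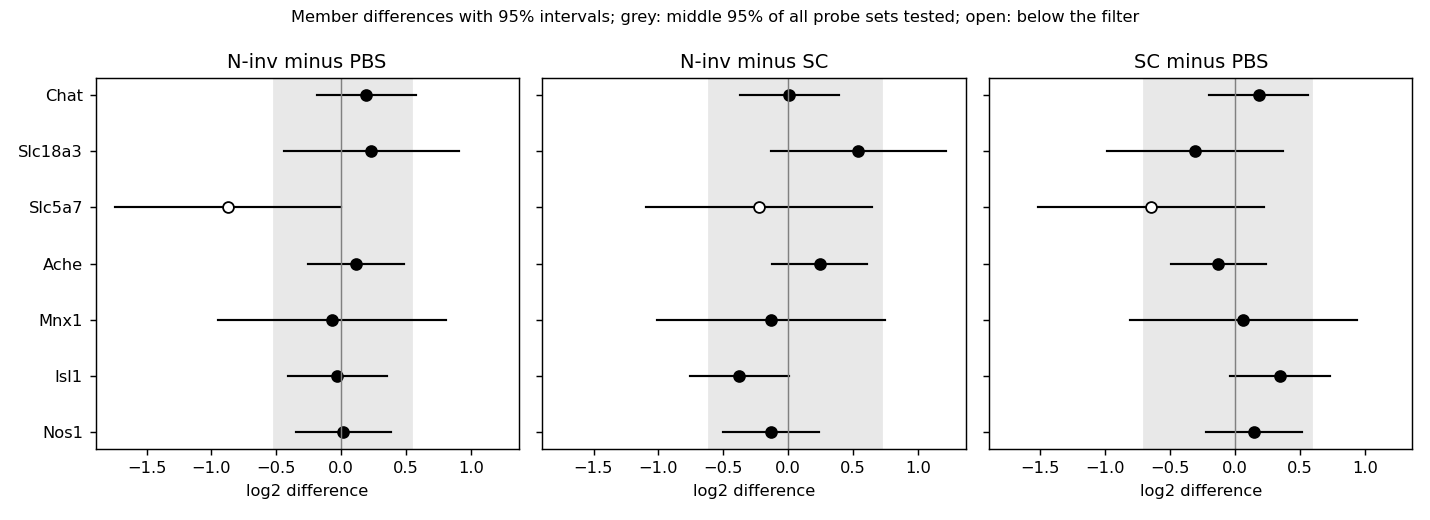
Log2 difference of each member gene (brightest probe set) for N-inv minus PBS, N-inv minus SC and SC minus PBS; lines are 95% intervals from limma, the grey band holds the middle 95% of all 27022 probe sets tested, and the open point is Slc5a7, from the fit without a filter. The intervals of all 6 tested members include 0 in the 3 comparisons.

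Acetylcholine acts through nicotinic channels and muscarinic receptors. Of 21 listed receptor genes 18 were measured, and 5 passed the filter: Chrna4, Chrna6, Chrna7, Chrnb2 and Chrm1. The muscle subunits Chrna1, Chrnb1, Chrnd, Chrne and Chrng were below it. None of the 5 had an unadjusted p under 0.05 in limma, and their median log2 difference was -0.01 in N-inv against PBS and 0.28 in SC against PBS, a value that was 0.08 without SC replicate 2.

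Chrnb2, the common beta subunit of neuronal nicotinic receptors, measured 1200.3 and 1265 in N-inv, 1166 and 1529 in SC, and 1053 and 1145 in PBS. Both PBS arrays were lowest, and the log2 difference was 0.16 ± 0.19 (SE) in N-inv and 0.28 ± 0.19 in SC against PBS. The SC value of Chrnb2 was 0.08 without SC replicate 2. Chrna4, its frequent partner, overlapped in every comparison, with 305 and 541 in N-inv, 583 and 328 in SC, and 277 and 399 in PBS. Chrm1, a muscarinic receptor, measured 186 and 87.5 in N-inv, 159 and 211 in SC, and 334 and 183 in PBS. Its log2 difference for N-inv against PBS was -0.82 ± 0.38 (SE), with a limma adjusted p of 1.0, and the groups overlapped. That value ran between -1.28 without N-inv replicate 1 and -0.37 without N-inv replicate 2.

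Of 14 genes that handle choline or break down acetylcholine, 13 were measured and 9 passed the filter. In N-inv against PBS these 9 lay between -0.10 and 0.18 on the log2 scale, with 0 at an unadjusted p under 0.05 in limma. Bche, butyrylcholinesterase, a second enzyme that can split acetylcholine, measured 385 and 404 in N-inv, 279 and 268 in SC, and 454 and 367 in PBS. Both SC arrays were below the other 4, by a log2 difference of -0.54 ± 0.17 (SE) against PBS, with a limma adjusted p of 0.580, and -0.51 without SC replicate 2. Prima1, which anchors Ache in neuronal membranes, measured 1032 and 1317 in N-inv, 975 and 993 in SC, and 1297 and 1054 in PBS, and its SC arrays too were below the other 4. The choline kinases Chka and Chkb had log2 differences of -0.10 and 0.07 in N-inv against PBS. In SC against PBS they had 0.11 and 0.29, and both SC arrays of Chkb were above both PBS arrays, with a limma adjusted p of 0.741. The Chkb value was 0.17 without SC replicate 2. Of the 9 genes, 6 were above 0 and 3 below in SC against PBS, with a median of 0.10. Without SC replicate 2 the counts were 2 above and 7 below, and the median turned to -0.11.

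The list of other motor neuron genes had 17 of 18 measured genes above the filter. In N-inv against PBS, 10 were above 0 and 7 below, with a median log2 difference of 0.01 and 0 at an unadjusted p under 0.05 in limma. Chodl, a marker of motor neurons that drive fast muscle fibres, measured 3403 and 2867 in N-inv, 1681 and 1817 in SC, and 4814 and 3136 in PBS. Both SC arrays were below the other 4. The log2 difference was -1.14 ± 0.24 (SE) for SC against PBS, with an unadjusted p of 0.00226 and an adjusted p of 0.518 in limma, and -1.20 without SC replicate 2. For N-inv against SC it was 0.83 ± 0.24, with a limma adjusted p of 0.464, and for N-inv against PBS -0.31 ± 0.24.

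Lhx3, the LIM factor that works with Isl1 in motor neurons, measured 223 and 262 in N-inv, 212 and 288 in SC, and 191 and 108 in PBS. All 4 arrays from tumour-bearing mice exceeded both PBS arrays, by log2 differences of 0.65 ± 0.27 (SE) in N-inv and 0.68 ± 0.27 in SC, with limma adjusted p of 1.0 and 0.626. Without PBS replicate 2 they were 0.30 and 0.33, and the SC value was 0.48 without SC replicate 2. Prph, the neurofilament protein peripherin, measured 6642 and 5166 in N-inv, 3162 and 5215 in SC, and 4552 and 3694 in PBS, and both N-inv arrays exceeded both PBS arrays, by 0.51 ± 0.28 (log2, SE), with a limma adjusted p of 1.0. Nkx6-1 and Uts2 had log2 differences of 0.44 and -0.41 in N-inv against PBS, with overlap of arrays. In SC against PBS the list median was -0.01 with both SC arrays and -0.21 without SC replicate 2.

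Among 4 other genes of preganglionic neurons, all above the filter, Cartpt encodes the precursor of the CART peptides found in sympathetic preganglionic neurons. It measured 1004 and 1574 in N-inv, 1183 and 1373 in SC, and 702 and 633 in PBS. All 4 arrays from tumour-bearing mice exceeded both PBS arrays, and N-inv overlapped SC. The log2 difference was 0.89 ± 0.24 (SE) for N-inv against PBS, with an unadjusted p of 0.00831 and an adjusted p of 1.0 in limma. For SC against PBS it was 0.91 ± 0.24, with a limma adjusted p of 0.520. The N-inv value was 0.57 without N-inv replicate 2, and the SC value was 0.80 without SC replicate 2. Cartpt is also expressed by other spinal neurons, whose part was not tested.

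Zeb2, a zinc finger factor, measured 4366 and 4536 in N-inv, 3432 and 2595 in SC, and 4466 and 5324 in PBS. Fbn2, a fibrillin of the extracellular matrix, measured 260.3 and 227 in N-inv, 155 and 213 in SC, and 265 and 339.5 in PBS. For both genes the SC arrays were below the other 4, at log2 differences against PBS of -0.70 ± 0.20 and -0.65 ± 0.21 (SE), with limma adjusted p of 0.524 and 0.582. Without SC replicate 2 they were -0.50 and -0.85. Microglia use Zeb2 too, and the summed intensity of 5 microglia markers ranged over 21177 to 25304 in N-inv, 13240.5 to 14976 in SC and 15899 to 16245 in PBS, whose part in the Zeb2 values was not tested. For 4 oligodendrocyte genes the median log2 difference was 0.07 in N-inv and -0.25 in SC against PBS. In SC, 2 of the 4 were above 0 and 2 below, and the median was -0.20 without SC replicate 2. Their summed intensity overlapped between SC and PBS, and their part was not tested either. Smad1, a mediator of BMP signals, measured 3675 and 3597 in N-inv, 3095 and 5285 in SC, and 3046 and 4103 in PBS and overlapped in every comparison.

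**Figure D3:**
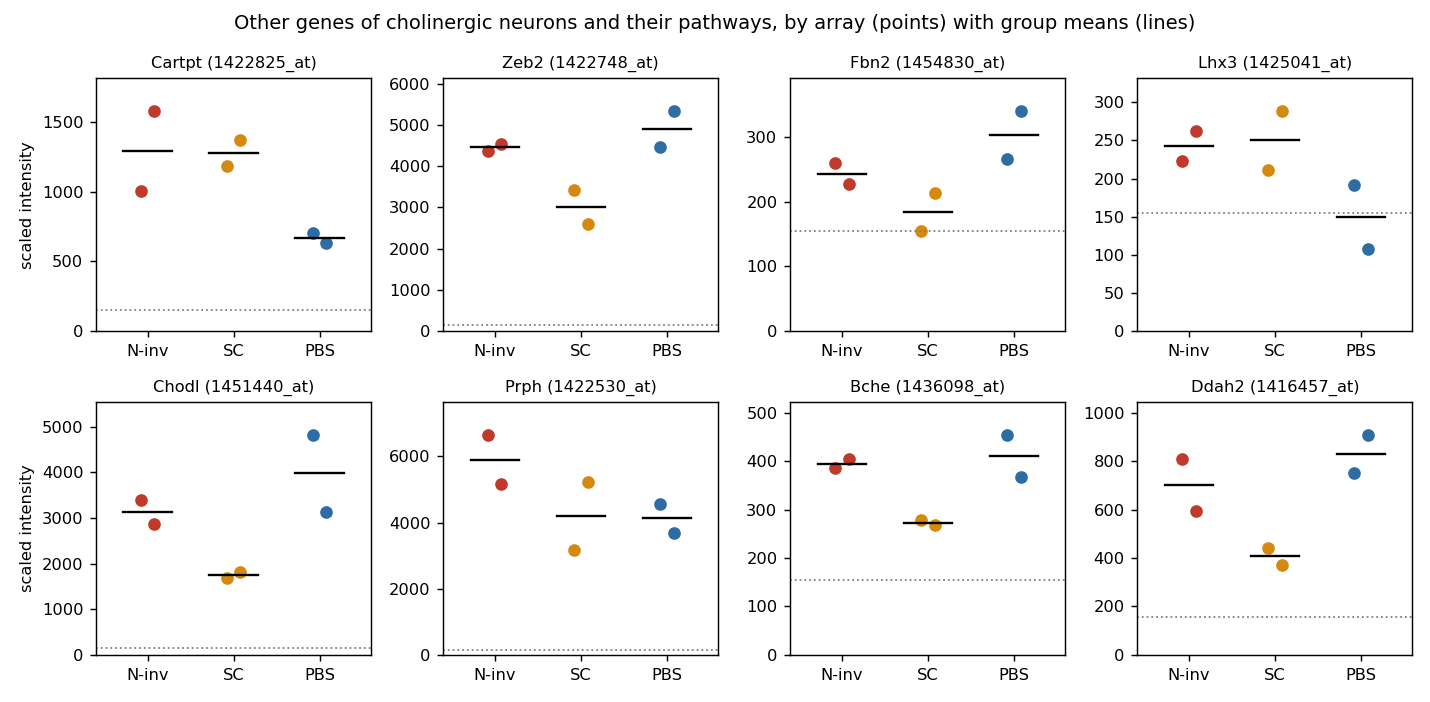
Scaled intensity by array of 8 other genes of cholinergic neurons and their pathways in N-inv, SC and PBS; points are single arrays, black lines are group means (n = 2 per group), the dotted line is the filter, and each axis starts at 0. Both PBS arrays are lowest for Cartpt and Lhx3, and both SC arrays are lowest for Zeb2, Fbn2, Chodl, Bche and Ddah2. The 8 genes were picked from longer lists. In SC against PBS, 2 of 9 choline and 3 of 17 motor neuron genes were lower without overlap. So were 2 of 4 preganglionic and 3 of 16 nitric oxide genes, beside 20.2% of all probe sets tested. Higher without overlap were 1, 1, 1 and 0 in the same order, beside 14.2% of all.

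Nitric oxide from Nos1 acts through guanylyl cyclase and cGMP, and 16 of 17 other genes of that route passed the filter. In N-inv against PBS 9 were above 0 and 7 below, with a median log2 difference of 0.03 and 0 at an unadjusted p under 0.05 in limma. Ddah2, which degrades a natural inhibitor of nitric oxide synthases, measured 808 and 596 in N-inv, 443 and 373 in SC, and 750.4 and 908 in PBS. Both SC arrays were below the other 4, by -0.98 ± 0.21 (log2, SE) against PBS, with a limma adjusted p of 0.518, and -0.86 without SC replicate 2. Ddah1, its relative, had log2 differences against PBS of 0.31 in N-inv and 0.07 in SC. Prkg2, a kinase switched on by cGMP, had -0.28 and -0.29, and Pde9a, which breaks cGMP down, had 0.30 and 0.11. In SC against PBS the list median was -0.04, and -0.24 without SC replicate 2.

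Genes that neurons switch on after axon injury were set beside the members, because motor axons run in the injected nerve. Most motor neurons of that nerve lie further down the cord, and the cells behind these values were not tested. In N-inv all 8 injury genes were above PBS with no overlap of arrays, where 21.7% of all probe sets tested were higher without overlap. In limma 6 of 8 had an unadjusted p under 0.05, where 2.27% of all were higher at that level. Limma called 0 at an adjusted p under 0.05, and their median log2 difference was 0.73. The list was chosen with earlier results of these data known, so these shares are a description and no test. All 5 microglia markers were also higher in N-inv than in PBS without overlap, with a median log2 difference of 0.76, 3 had an unadjusted p under 0.05 and 0 an adjusted one in limma, and their summed intensity ranged over 21177 to 25304 in N-inv, 13240.5 to 14976 in SC and 15899 to 16245 in PBS. Their part in the injury gene values was not tested. For Sprr1a, which neurons make as their axons regrow, the values were 4136 and 3362 in N-inv, 187 and 2299 in SC, and 112 and 141 in PBS. The SC arrays lay far apart. For N-inv against PBS the log2 difference was 4.63 ± 0.97 (SE), with a limma adjusted p of 1.0 in the fit to all 6 arrays. That adjusted p was 0.0481 in limma without SC replicate 1, 0.0475 without SC replicate 2 and 0.0455 without either, so this call depended on the SC arrays, which share the estimate of spread. The log2 difference for SC against PBS was 2.21, 3.94 without SC replicate 1 (limma adjusted p of 0.0392) and 0.48 without SC replicate 2. Gap43, a growth cone protein, measured 7965 and 7410.0 in N-inv, 4901 and 6089.8 in SC, and 4623 and 5286 in PBS. Ecel1 and Gal had log2 differences of 0.80 and 1.39 in N-inv against PBS.

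In SC against PBS the injury genes had a median of 0.36, and 0.07 without SC replicate 2. For 13 pan-neuronal genes the median was 0.10 in N-inv and 0.02 in SC against PBS, where it turned to -0.07 without SC replicate 2. In N-inv against PBS 12 of the 13 were above 0 and 1 below. There 7 were higher without overlap of arrays, beside 21.7% of all probe sets tested, and 0 had an unadjusted p under 0.05 in limma. Their summed intensity ranged over 280853 to 292374 in N-inv, 258597 to 298977 in SC and 267457 to 270739 in PBS. Beside the neuronal lists, summed astrocyte markers ranged over 88723 to 93236 in N-inv, 54699 to 80851 in SC and 65774 to 73053 in PBS, and their part in the values above was not tested.

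**Figure D4:**
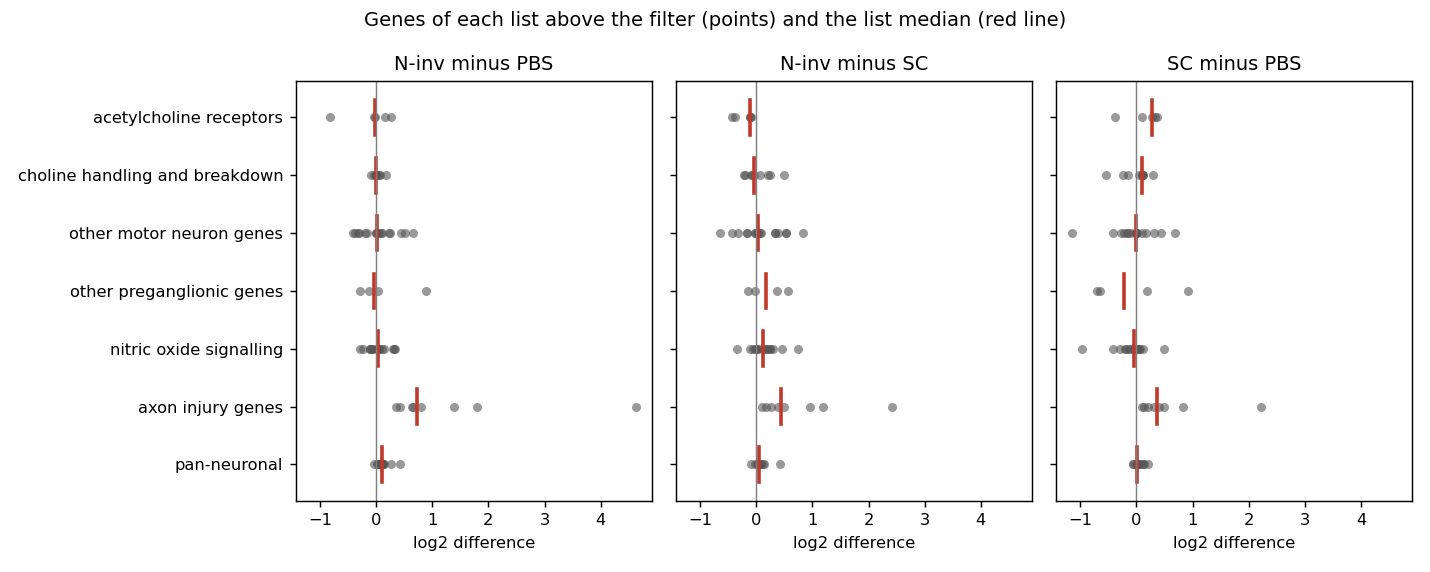
Log2 differences of the genes above the filter in 7 lists for N-inv minus PBS, N-inv minus SC and SC minus PBS; points are genes and red lines list medians. In N-inv minus PBS the axon injury genes all lie above 0, up to 4.63 for Sprr1a, and the receptor, choline, motor neuron and nitric oxide lists lie on both sides of 0.

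Genes whose log2 values were most like those of 3 members over the 6 arrays were found among 12620 genes, as a description. With so many genes searched over 6 arrays, correlations this high can arise among unrelated genes, so no shared regulation can be read from them. For Chat they were Ccdc86, Ptger2, Inafm1 and Tes, with Pearson correlations of 0.981 to 0.985. For Isl1 they were Trim3, Phxr4, Bccip and Trappc2, at 0.975 to 0.992. For Nos1 they were Gm32960, Sh2d5, H3f3a and Cdk2, at 0.980 to 0.989. Trim3 measured 2436 and 2429 in N-inv, 3339 and 3319 in SC, and 2167 and 2730.3 in PBS, with both SC arrays highest as for Isl1. Among the members, Slc18a3 and Ache correlated at 0.79, Isl1 and Nos1 at 0.82, Slc18a3 and Isl1 at -0.74 and Ache and Isl1 at -0.81, by their brightest probe sets. All these points share 6 arrays of 3 groups.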

How the data were processed

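The deposited values are linear intensities per probe set, 1 column per array. Per the labels' protocols, TRIzol RNA (100 ng) went through two-cycle labelling for Affymetrix arrays. The sources used here do not name the probe summary method. In every column the 2% trimmed mean was 1000, so arrays had been scaled before deposit. After 64 control probe sets were left out, each array was brought to 1 median (255.8), and 25.6 was added before log2, a scale that makes changes of dim genes look smaller. Probe sets with a mean above the 40th percentile, 155.2, were tested (27022).

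One limma model (3.58.1, R 4.3.3) with a mean per group was fitted to all 6 arrays, two-sided, with Benjamini-Hochberg adjustment over all probe sets tested, 3 residual and 3.59 prior degrees of freedom. With 2 arrays against 2 the lowest p of an exact permutation test is 0.333, so none was used. The number of arrays limits the precision. The script was tested on simulated data.

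The brightest probe set stands for a gene. All member probe sets are reported. In other lists the genes named come from the 4 of smallest p in N-inv and in SC against PBS, and some of these were left out. Among those left out in SC against PBS, Bcl6, Nostrin, Adcyap1 and Sox11 had log2 differences of 0.44, 0.48, 0.49 and 0.32. Pou3f1 and Gucy1a1 had -0.28 and -0.20. Without SC replicate 2 the values of Bcl6 and Nostrin were 0.15 and 0.04. Chat, Isl1 and Nos1 have 4 most similar genes each. Chrna7, Acta1 and receptor subunits below the filter were otherwise named beside a count. Members, lists and promoter motifs were chosen with earlier results of these data known. Promoter sequences are from RefSeq (GRCm38.p6) and matched 7 of 7 members. Listed genes without a probe set of 1 symbol (16) were not analysed here. Same-numbered arrays did not deviate together (correlations of -0.03, 0.01 and 0.04), so replicate numbers were not taken as pairs. Alternatives covered scaling, pseudocount, filter, variance model, groups fitted, replicate block and each array left out. List values without SC replicate 2 were an alternative chosen after seeing the data.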

Additional observations from a re-analysis of the deposited data

How the results depend on the processing

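No member passed the threshold under any alternative. The count of all probe sets called, 0 in each comparison, became 1 for N-inv against PBS and 2 for N-inv against SC with an intensity trend, and 1 for N-inv against PBS with only the 2 groups compared, where Sprr1a passed. Leaving out single arrays gave 0 to 1 in N-inv against PBS, 0 to 2 in N-inv against SC and 0 to 10 in SC against PBS, the 10 without SC replicate 1. With the replicate number as a block the counts stayed at 0, and the differences of the members were the same, such as 0.19 for Chat in N-inv against PBS. The median of the members was -0.025 in N-inv against SC and -0.13 in SC against PBS when all probe sets of a gene were averaged. With single arrays left out it ran over -0.0082 to 0.18 in N-inv against PBS, -0.17 to 0.14 in N-inv against SC and -0.13 to 0.13 in SC against PBS. Signs turned for Nos1 in N-inv against PBS, at -0.0093 with quantile normalization and -0.018 with values as deposited, and for Chat in N-inv against SC, at -0.039 with values as deposited.

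Signs also turned on leaving out single arrays. In N-inv against PBS the ranges were -0.52 to 0.38 for Mnx1, -0.14 to 0.078 for Isl1, -0.022 to 0.055 for Nos1, -0.12 to 0.66 for Chrna4, -0.27 to 0.16 for Chrna6, -0.19 to 0.097 for Bche and -0.17 to 0.25 for Smad1. The Chrna6 range covers only 3 settings, against 6 for the other genes, since Chrna6 fell below the filter in the rest. In N-inv against SC they were -0.092 to 0.11 for Chat, -0.59 to 0.14 for Slc5a7 and -0.53 to 0.27 for Mnx1. In SC against PBS they were -0.68 to 0.060 for Slc18a3, -0.38 to 0.51 for Mnx1, -0.78 to 0.0084 for Chrm1, -0.021 to 0.76 for Chrna4, -0.41 to 0.10 for Pcyt1a and -0.19 to 0.58 for Smad1. The cause was not tested. Slc5a7 was below the filter, and 2 arrays a group limit the precision of every value.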
